A study of Sus scrofa with 22 samples.

Results

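Type I interferon response genes were followed in mucosa of the jejunum, a stretch of small intestine that takes up nutrients, from 22 Ossabaw pigs. Pigs of this breed become obese readily and serve in studies of diet and metabolic disease. The genes were taken as a list of 43 gene symbols, of which 36 had a row among the 24358 genes of each library, and 35 of the 36 had enough counts to be tested among 13626 genes. Rows for IFIT3, OAS1, XAF1, IFITM1, IFITM2, SP100 and RTP4 were not found under these symbols and are not analysed here. IFIT2 was the member below the filter on low counts, with 0 to 35 counts in a library. The list was written from known biology and not from a measured difference, but with earlier results of these data known.

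Type I interferons are secreted proteins that cells make when they sense foreign nucleic acid. They bind a receptor of IFNAR1 and IFNAR2 chains, the kinases JAK1 and TYK2 then phosphorylate STAT2, which enters the nucleus in a complex with IRF9 and switches on a large set of antiviral genes. In the gut, type III interferons act on epithelial cells through a separate receptor and induce much the same genes, and interferon gamma from lymphocytes induces an overlapping set.

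The pigs ate their diets for 6 months. WD+S pigs (n = 7, labelled atherogenic with statin) ate a Western pattern high in saturated butter fat, in cholesterol and in sugar and white flour, and by that label received atorvastatin, an inhibitor of cholesterol synthesis, at 20 mg a day for the first 3 months and 40 mg a day after that. The titles of the WD+S samples start with ARST, which the series text gives as its abbreviation for the Western diet without drug, so the sources disagree on whether these pigs had the drug. The diet label was followed, and each WD+S comparison below rests on it. HHD+S pigs (n = 8) received the same drug on a heart healthy pattern of unsaturated oils, whole grains, fruit, vegetables and fiber with fish oil capsules of 1000 mg. HHD pigs (n = 7) ate that heart healthy pattern with fish oil and no drug. Both diets held 38% of energy as fat, 47% as carbohydrate and 15% as protein. The study randomized 16 boars and 16 gilts, and the sex and age of each pig are not in the labels used here. Each library is 1 pig, so the p-values below set a difference between groups against the spread between pigs. No fish oil is listed for WD+S pigs, and a Western group without drug is not analysed here. By the labels, WD+S against HHD+S compares diet and fish oil together under the drug. HHD+S against HHD is the drug comparison under the heart healthy diet with fish oil. WD+S against HHD differs in diet, fish oil and drug together. Pigs are numbered within their group in the order of listing.

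Libraries held 15.3 to 31.6 M counts of uniquely placed exon reads. Levels are counts per 1 M counts (CPM) after scaling by the trimmed mean of M values, and they compare libraries for 1 gene, not genes with each other, since they are not divided by transcript length. The 10 enterocyte markers found in the files summed to 21041 to 57595 CPM in all 22 libraries, so the absorptive epithelium named by the tissue label was present in each. Libraries were sequenced in 2 pools, 3 and 4, given in the names of the deposited files. The members were higher in pool 4 than in pool 3 for 34 of 35 genes, with a median log2 difference of 0.32 against -0.00 over all genes, and none of the 35 passed an adjusted p of 0.05 or an unadjusted p of 0.05 (0% and 4.42% of all genes). The edgeR comparisons of groups carry the pool as a term, except within 1 pool, while folds over group medians, ranks and Spearman values do not.

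In 4 of the 22 pigs most interferon response genes were high at once, and these pigs came from all 3 groups: WD+S 7, HHD+S 7, HHD+S 8 and HHD 7. WD+S 7 and HHD+S 7 were among the 4 highest libraries for 35 of 35 members, HHD 7 for 34 and HHD+S 8 for 26. The mean of the 35 members, as log2 CPM centred on each gene, was 2.23 in WD+S 7, 1.48 in HHD+S 7, 1.37 in HHD 7 and 1.02 in HHD+S 8. The next library, WD+S 4, stood at 0.47, and the others ran down to -0.73 in HHD 2. WD+S 7 had the highest value of all 22 libraries for 34 of the 35 members, and HHD+S 7 had it for the remaining one, IRF9. For 25 of 35 members (71.4%) these 4 libraries were the 4 highest of the 22, which held for 1.28% of all 13626 genes and for 1.1% of the 13591 genes outside the list. The 4 libraries were picked by the members' own mean, so these shares describe the choice and are given with no test. In bulk mucosa, more cells that express a gene and more RNA of that gene per cell cannot be told apart.

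**Figure D1:**
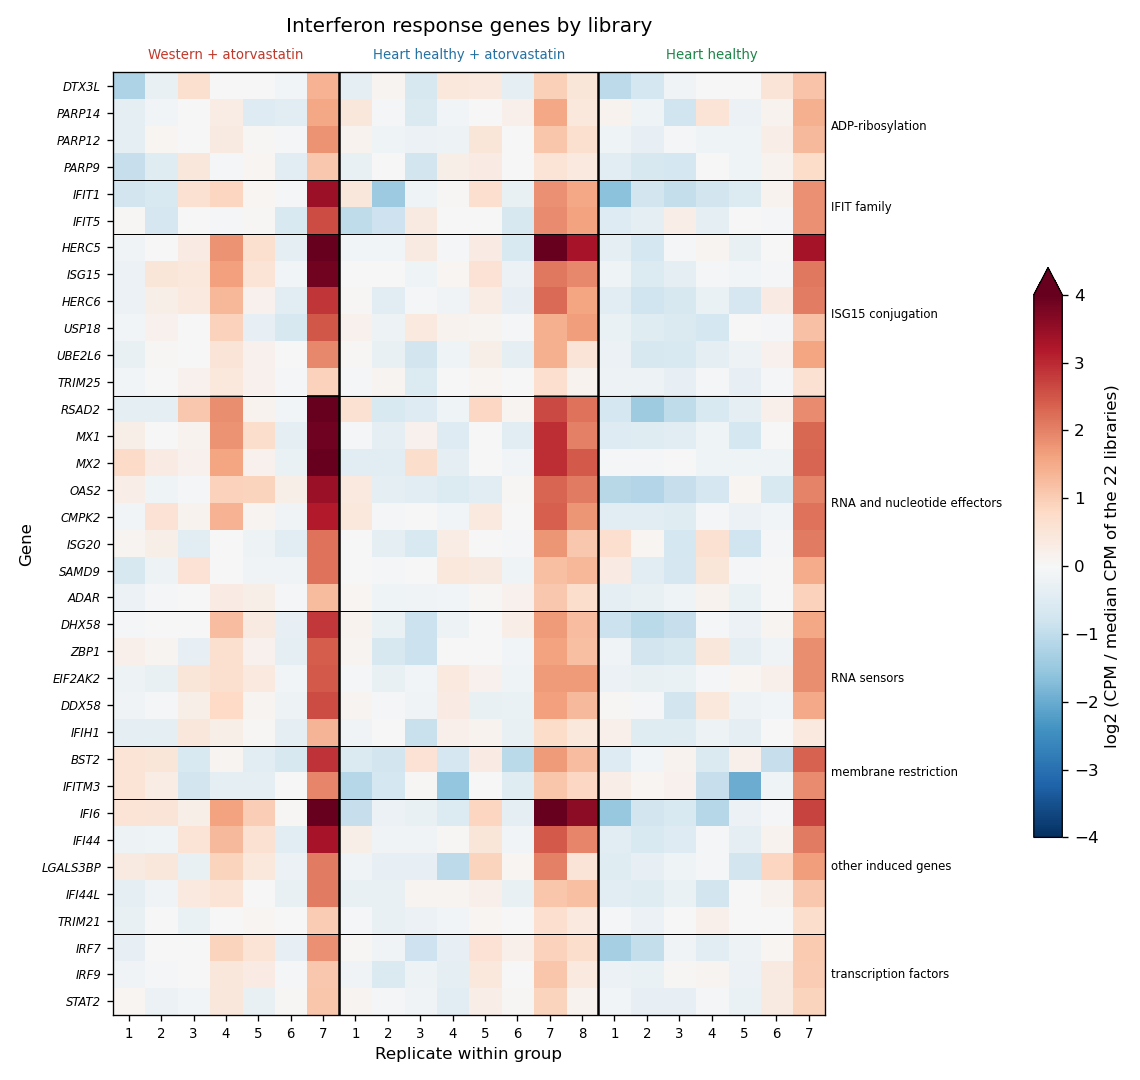
Each row is 1 of the 35 tested interferon response genes, grouped by role, and each column is 1 pig, ordered by group and replicate; color is log2 of the CPM over the gene's median CPM in the 22 libraries, and values above 4 take the darkest color. Columns WD+S 7, HHD+S 7, HHD+S 8 and HHD 7 are red over nearly all rows, with 1 or 2 such pigs in each group.

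The spread within groups was correspondingly wide. The standard deviation of log2 CPM over pigs of the same group had a median of 0.866 over the members, with a range of 0.338 to 1.68, against 0.299 over all genes tested. All 35 members lay above that all-gene median. Without the 4 high libraries the members' median was 0.409 against 0.278, and 30 of 35 members still lay above the all-gene median. This spread also holds counting noise, and the members were not matched to the other genes by level.

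Each high pig was set against the median of the other 6 pigs of its own group, the second high HHD+S pig being left out. The median fold over the 35 members was 4.92 in WD+S 7, 3.78 in HHD 7, 3.30 in HHD+S 7 and 2.51 in HHD+S 8. More than 2-fold higher values were seen for 34, 32, 29 and 22 of the 35 members, in that order of pigs, where 2.7%, 3.64%, 3.59% and 2.5% of all genes tested were more than 2-fold higher. More than 5-fold higher values were seen for 16, 11, 10 and 4 members, where the shares of all genes were 0.47%, 0.521%, 0.411% and 0.139%. HERC5 and IFI6 were among the 3 members with the largest fold in each of the 4 pigs. The smallest fold was that of TRIM25 in WD+S 7 and HHD+S 8, of IFIH1 in HHD 7 and of PARP9 in HHD+S 7.

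**Figure D2:**
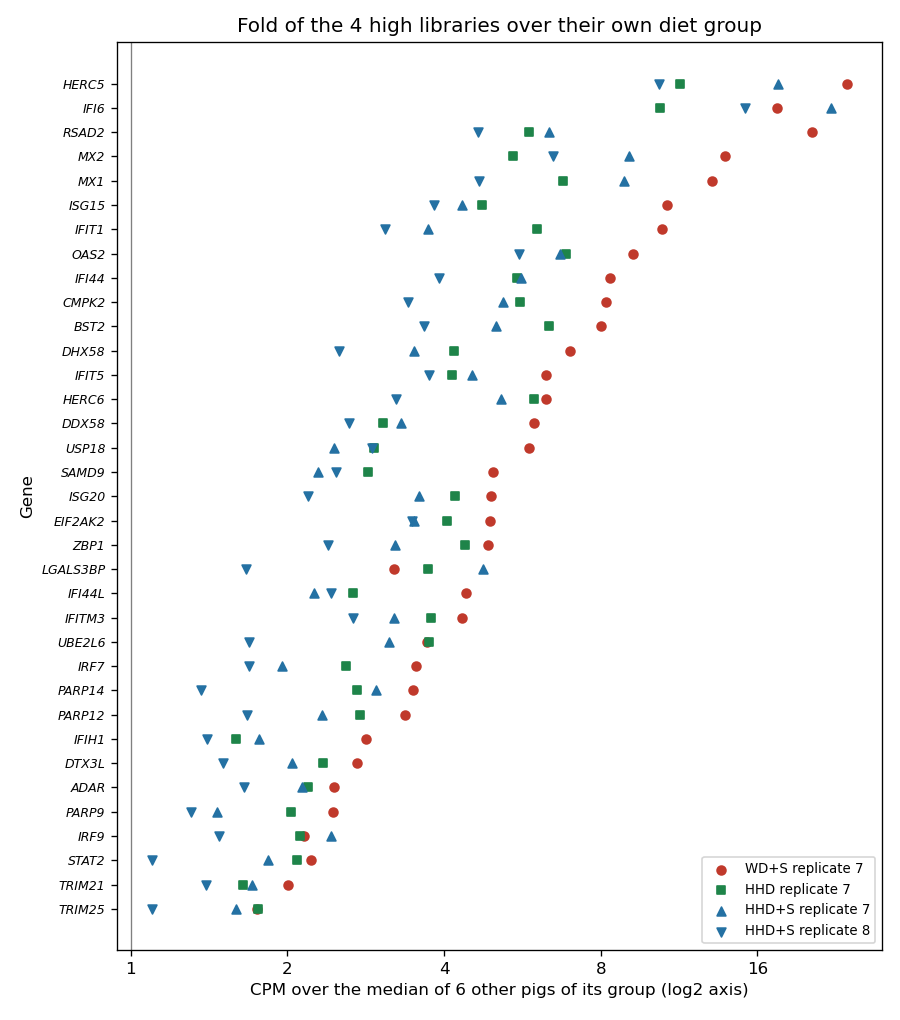
Points give, for each gene, the CPM of a high library over the median CPM of 6 other pigs of the same group, on a log2 axis; the 4 symbols are WD+S 7, HHD 7, HHD+S 7 and HHD+S 8. HERC5 reaches 23.8-fold in WD+S 7, TRIM25 stays between 1.10-fold and 1.76-fold, and HHD+S 8 lies furthest left for most genes.

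Among the sensors of foreign RNA and DNA, EIF2AK2, the kinase PKR that halts translation on double-stranded RNA, stood clear of the rest in all 4 pigs. Its level was 262 CPM in WD+S 7, 156 in HHD+S 7, 155 in HHD+S 8 and 173 in HHD 7, while the other pigs ran from 38.6 to 75.1 CPM, with medians of 53.4 in WD+S, 44.5 in HHD+S and 42.7 in HHD. DHX58, which encodes LGP2, a regulator of the RIG-I-like receptors, was at 95.3, 44.5, 31.9 and 39.5 CPM in the same 4 pigs and at 6.48 to 32.0 in the others. One pig outside the 4, WD+S 4, reached the level of HHD+S 8 for this gene. ZBP1, a sensor of Z-form nucleic acid that can trigger cell death, was at 39.8, 22.9, 17.03 and 27.2 CPM against 4.14 to 11.5. DDX58, which encodes the RNA sensor RIG-I, was 5.97-fold, 3.30-fold, 2.62-fold and 3.06-fold higher than its group medians, while IFIH1, which encodes the related sensor MDA5, was 2.83-fold, 1.76-fold, 1.40-fold and 1.59-fold higher. RefSeq places ACO1 across 38319 bases of the DDX58 span on chromosome 10, and whether the counting used strand is not given in the sources used here.

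The 3 transcription factors of the response had the smallest median fold of the role groups in WD+S 7, HHD 7 and HHD+S 7, at 2.22, 2.12 and 1.96. IRF7, which amplifies interferon production, was at 83.8 CPM in WD+S 7, 45.2 in HHD+S 7, 39.0 in HHD+S 8 and 49.4 in HHD 7, and the other pigs ran from 9.36 to 43.7 CPM. The upper end of that range was again WD+S 4, above HHD+S 8. IRF9, the DNA-binding partner of STAT2, was at 20.2, 20.6, 12.6 and 19.1 CPM against 6.36 to 13.0, so HHD+S 8 lay inside the range of the other pigs. STAT2 was 2.22-fold, 1.84-fold, 1.10-fold and 2.09-fold higher than its group medians, with HHD+S 8 again inside the range of the rest.

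ISG15 is a ubiquitin-like protein that is joined to target proteins by UBE2L6 and HERC5 and removed by USP18. ISG15 (ENSSSCG00000040575, chromosome 6, 63363201 to 63364211 in Sscrofa11.1) was at 256 CPM in WD+S 7, 75.8 in HHD+S 7, 66.9 in HHD+S 8 and 75.7 in HHD 7. The other pigs ran from 14.8 to 54.6 CPM in WD+S with a median of 23.9, from 15.0 to 26.1 in HHD+S with a median of 17.5, and from 11.9 to 16.5 in HHD with a median of 16.0. All 4 high pigs lay above every other pig, and WD+S 4 held the 54.6. HERC5 (ENSSSCG00000030548, chromosome 8, 130532256 to 130591158), the ligase that attaches ISG15, had the largest fold of the list in WD+S 7 and HHD 7: its level was 179, 109, 64.8 and 67.1 CPM in the 4 pigs, in the order above, against 4.09 to 23.2 in the others. HERC6, its neighbour 3782 bases away, was at 397, 262, 165 and 227 CPM against 31.7 to 137. USP18, which also blocks the receptor, was at 107, 51.5, 60.8 and 43.5 CPM against 11.8 to 36.6, and here HHD+S 8 exceeded HHD+S 7. TRIM25, a ubiquitin ligase that activates RIG-I, differed least, with 92.1, 78.4, 53.9 and 75.1 CPM against 33.3 to 65.9, and HHD+S 8 inside that range.

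IFIT proteins bind viral RNA that lacks a host cap mark. IFIT1, a gene of low counts here (19 to 408 in a library), was at 27.0 CPM in WD+S 7, 9.10 in HHD+S 7, 7.51 in HHD+S 8 and 9.14 in HHD 7 against 0.817 to 4.58 in the others. IFIT5 was at 136, 82.5, 68.2 and 79.7 CPM against 10.98 to 28.2. For both genes the 4 pigs stood above the other 18 without overlap. RefSeq places IFIT1 and IFIT2 inside the span of LIPA, which shares 12084 and 10872 bases with them.

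Genes acting on viral RNA and nucleotides had a median fold of 8.72 in WD+S 7, the highest of the 8 role groups there. RSAD2 (ENSSSCG00000008648, chromosome 3, 128880853 to 128897809) encodes viperin, which makes a chain-terminating nucleotide. It was at 525 CPM in WD+S 7, 158 in HHD+S 7, 115 in HHD+S 8 and 93.3 in HHD 7. The other pigs ran from 19.2 to 91.1 CPM in WD+S, 16.5 to 45.2 in HHD+S and 9.39 to 28.9 in HHD, with medians of 25.7, 24.7 and 16.0. WD+S 7 stood apart from every pig, but HHD 7 lay just above WD+S 4. CMPK2, the nucleotide kinase gene 5585 bases from RSAD2, was 8.21-fold, 5.20-fold, 3.41-fold and 5.59-fold higher than its group medians. MX2 and MX1, dynamin-like GTPases that trap viral nucleocapsids, lie 21436 bases apart on chromosome 13. MX2 was at 375, 175, 125 and 112 CPM against 16.3 to 67.7, and MX1 was 13.1-fold, 8.87-fold, 4.68-fold and 6.77-fold higher than its group medians. OAS2, which makes the 2-5A signal for RNA decay, was at 599, 275, 229 and 217 CPM against 24.5 to 103. SAMD9, a restriction factor against poxviruses, was at 499, 257, 278 and 311 CPM against 69.6 to 168. ADAR, the adenosine deaminase of double-stranded RNA, had folds of 2.46, 2.14, 1.65 and 2.19.

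Both measured membrane restriction factors were high in the same 4 pigs. BST2, which encodes tetherin and holds budding virus on the cell, was at 85.3 CPM in WD+S 7, 38.0 in HHD+S 7, 27.6 in HHD+S 8 and 59.9 in HHD 7 against 5.46 to 17.2. IFITM3, which blocks fusion of virus with endosomes, was at 59.8, 32.9, 27.3 and 56.8 CPM against 3.89 to 22.3. Neither range overlapped with the 4 pigs. IFITM3 has near-identical copies, and since only uniquely placed reads were counted, its level is uncertain.

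The 4 ADP-ribosylation genes had median folds of 3.04 in WD+S 7, 2.53 in HHD 7, 2.19 in HHD+S 7 and 1.43 in HHD+S 8, the last being the smallest of the role groups in that pig. PARP14, a transferase that modifies proteins with single ADP-ribose units, was at 288, 284, 131 and 264 CPM in WD+S 7, HHD+S 7, HHD+S 8 and HHD 7 against 55.8 to 143, so that HHD+S 8 was not apart. DTX3L, a ubiquitin ligase that works with PARP9, was at 114, 83.1, 61.1 and 96.2 CPM against 18.5 to 67.0. The DTX3L and PARP9 gene spans overlap by 395 bases in RefSeq.

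IFI6 (ENSSSCG00000034570, chromosome 6, 84852782 to 84858072), a small membrane protein that limits flavivirus replication, had the largest within-group spread of the list. It was at 382 CPM in WD+S 7, 263 in HHD+S 7, 180.2 in HHD+S 8 and 99.9 in HHD 7. The other pigs ran from 15.6 to 46.0 CPM in WD+S with a median of 21.9, from 7.98 to 27.8 in HHD+S with a median of 11.9, and from 5.31 to 14.8 in HHD with a median of 9.60. Its fold over the group median was highest in HHD+S 7, at 22.1. IFI44 was at 77.4, 43.7, 30.4 and 33.2 CPM against 5.15 to 19.5. LGALS3BP, a secreted galectin-binding glycoprotein, was at 535, 519, 181 and 404 CPM against 62.1 to 236, and HHD+S 8 lay inside that range.

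**Figure D3:**
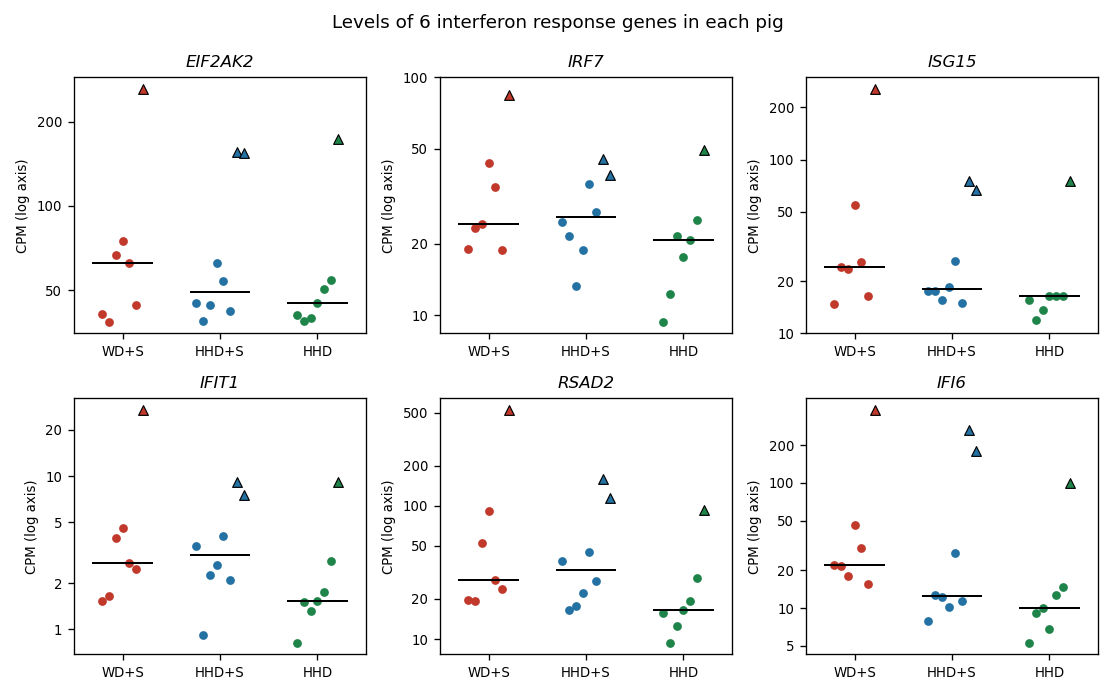
CPM on a log axis in each pig for EIF2AK2, IRF7, ISG15, IFIT1, RSAD2 and IFI6, by group; triangles are the 4 high pigs, circles the other 18, and lines the group medians over all pigs. Triangles stand above all circles for EIF2AK2, ISG15, IFIT1, RSAD2 and IFI6, while for IRF7 one circle, WD+S 4, lies above the lower HHD+S triangle.

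Member levels went together over the 22 pigs. Spearman's rho was positive for all 595 pairs of members, with a median of 0.670 and a range of 0.085 to 0.963, where all pairs of genes tested had a median of -0.003. Among the 18 pigs without the high ones, the median was 0.410 and 502 of 595 pairs were positive. HERC6 followed the mean of the other members most closely, with rho of 0.957 over 22 pigs and 0.922 over 18, and RSAD2 and IFI44 came next with 0.935 and 0.927 over 22. IFITM3 and BST2 followed it least, with rho of 0.325 and 0.406 over 22 pigs and of -0.232 and -0.084 over the 18. ISG20, an exonuclease of single-stranded RNA, and IFIT5 had rho of 0.098 and 0.042 over the 18. These values share libraries, depth and scaling, are across few pigs, and are given as a description.

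Several features of the 4 high pigs beside these genes were set against the others. Their numbers in the sample titles, 2362, 2358, 2357 and 2366 for WD+S 7, HHD+S 7, HHD 7 and HHD+S 8, were the 4 highest of the 22; the next highest, 2356, was HHD 6, whose member mean was -0.21. What the numbers stand for is not given in the sources used here. Of the 4 libraries, 2 were in pool 3 (HHD+S 7 and HHD 7) and 2 in pool 4 (WD+S 7 and HHD+S 8). All 5 smooth muscle markers were measured. They summed to 261 CPM in WD+S 7, 259 in HHD+S 7, 191 in HHD 7 and 150 in HHD+S 8. The other 18 ran from 257 to 840 CPM, with a median of 568. Where 4 marker values follow without names, they keep this order of pigs. The 9 measured of 11 markers of T and natural killer cells summed to 809, 898, 700.5 and 511 CPM against 265 to 822 with a median of 445. The 5 measured of 8 markers of plasmacytoid dendritic cells, a main source of type I interferon, summed to 458, 433, 335 and 267 CPM against 188 to 409. Of these sums 306, 300, 190 and 104 CPM were GZMB, a granzyme that is also on the T and natural killer cell list. In the other pigs GZMB ran from 42.4 to 229 CPM with a median of 84.7, so HHD 7 and HHD+S 8 lay inside that range. The other markers of the plasmacytoid dendritic cell list were not above the range of the other pigs. In the 4 high pigs SPIB was at 37.1 to 45.9 CPM against a median of 51.7, and BLNK at 75.6 to 95.8 against a median of 111. Goblet cell markers, 7 measured of 8, summed to 1360 CPM in WD+S 7 and 1348 in HHD+S 8, below the 1651 to 4182 of the other 18, and to 2601 in HHD+S 7 and 2734 in HHD 7. Red blood cell markers, 3 measured of 4, summed to 30.1, 0.610, 7.36 and 0.793 CPM against 5.08 to 82.5. Markers of macrophages and dendritic cells, 11 measured of 12, summed to 2758, 4494, 2953 and 1646 CPM against 875 to 4485. Markers of neutrophils and eosinophils, 4 measured of 5, were low throughout, at 2.92, 1.87, 4.79 and 1.87 CPM against 0.522 to 2.15. Of the 73 markers measured over all lists, CD163, a scavenger receptor of macrophages, was the 1 above all 18 others in each of the 4 pigs (45.1 to 122 against 7.24 to 40.6 CPM), and ACTG2, a smooth muscle actin, was the 1 below them (23.8 to 36.9 against 53.6 to 145). Enterocyte marker sums, between 30724 and 40356 CPM, lay inside the range of the others. No measured marker of these lists was at 0 in all libraries. The part of these features in the member values was not tested.

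Group comparisons over all 22 pigs found no interferon response gene that differed by label. In WD+S against HHD+S, 0 of 35 members passed an adjusted p of 0.05 by edgeR's quasi-likelihood test (0% of all genes), and 0 had an unadjusted p under 0.05 (2.92% of all genes in either direction, 1.47% higher in WD+S). In HHD+S against HHD the counts were 0 (0%) and 0 (1.81%, and 1.07% higher in HHD+S), and in WD+S against HHD they were 0 (0.00734%) and 0 (3.41%, and 1.95% higher in WD+S). A test of any difference among the 3 groups also called 0 (0.00734%), with 0 at an unadjusted p under 0.05 (2.13%). Most fitted differences leaned the same way without passing the test. Their median log2 fold change was 0.16 in WD+S against HHD+S, with 28 of 35 positive, 0.17 in HHD+S against HHD, with 30 positive, and 0.32 in WD+S against HHD, with 32 positive, while the medians over all genes were -0.01, 0.01 and -0.00 and 47.1%, 52.6% and 49.0% of all genes were positive. The members move together and the 3 comparisons share groups, so these counts are not independent of each other.

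In each comparison the median turned negative in 1 of 22 fits that each left out 1 pig, and that pig was a high one. With all 4 high pigs left out, as described below, the 3 medians were positive. Without WD+S 7 the median in WD+S against HHD+S was -0.36, and without HHD+S 7 it was 0.46. In HHD+S against HHD it was -0.18 without HHD+S 7 and 0.61 without HHD 7, and in WD+S against HHD it was -0.03 without WD+S 7 and 0.72 without HHD 7. Within the 13 pigs of pool 3 the 3 medians were -0.42, 0.08 and -0.35. Within the 9 pigs of pool 4, of which 2 were HHD pigs, they were 0.47, 0.81 and 1.25. In either pool 0 members were called. Of the high pigs, HHD+S 7 and HHD 7 were in pool 3, and WD+S 7 and HHD+S 8 in pool 4. Pool 3 thus held no high WD+S pig and pool 4 no high HHD pig. The part of this split in the medians was not tested.

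The members with the smallest p in each comparison did not pass the test. For WD+S against HHD+S, these were IFITM3, with a log2 fold change of 0.48 (SE 0.520), TRIM25, with 0.16 (SE 0.177), and ISG15, with 0.62 (SE 0.684), each at an edgeR adjusted p of 0.9995. Full-group medians of ISG15 were 24.3 CPM in WD+S, 18.1 in HHD+S and 16.3 in HHD, and the ranges overlapped. For atorvastatin under the heart healthy diet, they were IFI6, with 1.38 (SE 1.04), USP18, with 0.54 (SE 0.443), and RSAD2, with 0.82 (SE 0.780), each at an adjusted p of 0.9993. Without HHD+S 7 the IFI6 difference was -0.46, and without HHD 7 it was 2.68. For WD+S against HHD, they were RSAD2, with 1.45 (SE 0.949), TRIM25, with 0.28 (SE 0.187), and ISG15, with 0.90 (SE 0.757), each at an adjusted p of 0.9997. A p that misses the threshold does not show that the groups were alike.

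By role, the ISG15 conjugation genes were fitted higher in all 3 comparisons for 6 of 6 members, with medians of 0.21, 0.33 and 0.59 in the order above, and the RNA sensors for 5 of 5, with medians of 0.21, 0.17 and 0.32. Both membrane restriction genes were fitted lower in HHD+S than in HHD, with a median of -0.21. Among the 4 ADP-ribosylation genes, 3 were fitted lower in WD+S than in HHD+S, with a median of -0.04. None of these members passed the test.

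A further fit left out the 4 high pigs, a choice made after their member values had been seen. It removes the highest values of each group and narrows the spread, so its p-values depend on that choice. Over the remaining 18 pigs and 13614 genes, 0 of 35 members passed an adjusted p of 0.05 by edgeR in any of the 3 comparisons (0.00735%, 0% and 0.00735% of all genes in WD+S against HHD+S, HHD+S against HHD and WD+S against HHD). At an unadjusted p under 0.05, 13 of 35 members were higher in WD+S than in HHD (2.68% of all genes), 4 were higher in WD+S than in HHD+S (1.65%) and 1 was higher in HHD+S than in HHD (1.41%). No member was lower in the first group at that p, where either direction took in 4.46%, 2.55% and 3.01% of all genes. The test of any difference among the 3 groups gave 8 of 35 members at an unadjusted p under 0.05 (3.23%) and 0 at an adjusted p of 0.05 (0.00735%). The median log2 fold changes were 0.30, 0.17 and 0.11 in that order, with 30, 30 and 28 of 35 positive (48.5%, 49.1% and 49.3% of all genes).

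The 13 members at an unadjusted p under 0.05 in WD+S against HHD were OAS2, IFI6, MX1, CMPK2, ISG15, RSAD2, MX2, HERC6, DHX58, IFI44, TRIM25, HERC5 and IRF7. By role these were 5 of 8 RNA and nucleotide effectors, 4 of 6 ISG15 conjugation genes, 2 of 5 other induced genes, 1 of 5 RNA sensors, 1 of 3 transcription factors, 0 of 4 ADP-ribosylation genes, 0 of 2 in the IFIT family and 0 of 2 membrane restriction genes, and differences between roles were not tested. OAS2 was at 48.0 to 103 CPM in the 6 remaining WD+S pigs, 37.2 to 71.6 in the 6 HHD+S pigs and 24.5 to 57.4 in the 6 HHD pigs, with medians of 64.8, 41.1 and 31.6. Its log2 fold change in WD+S against HHD was 0.99 (SE 0.203, edgeR adjusted p = 0.638). IFI6 had a log2 fold change of 1.25 (SE 0.294, edgeR adjusted p = 0.638) and was the only member of the 35 for which all 6 WD+S pigs, from 15.6 CPM, lay above all 6 HHD pigs, up to 14.8 CPM; 0.147% of all genes showed this. No member showed it for WD+S above HHD+S (0.0807%) or for HHD+S above HHD (0.0807%). For RSAD2 and ISG15 the log2 fold changes were 1.07 (SE 0.376) and 0.72 (SE 0.228), with edgeR adjusted p of 0.999 and 0.918. The pigs of both groups overlapped for OAS2, RSAD2 and ISG15. The count of 13 fell to 6 without WD+S 4 and rose to 18 without HHD 6. The count of 4 ran from 1 without WD+S 4 to 7 without WD+S 6 (2 without HHD+S 6), and the count of 1 from 0 without HHD+S 1 to 7 without HHD 6 (4, 2, 2 and 3 without WD+S 4, WD+S 6, HHD 5 and HHD+S 2).

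**Figure D4:**
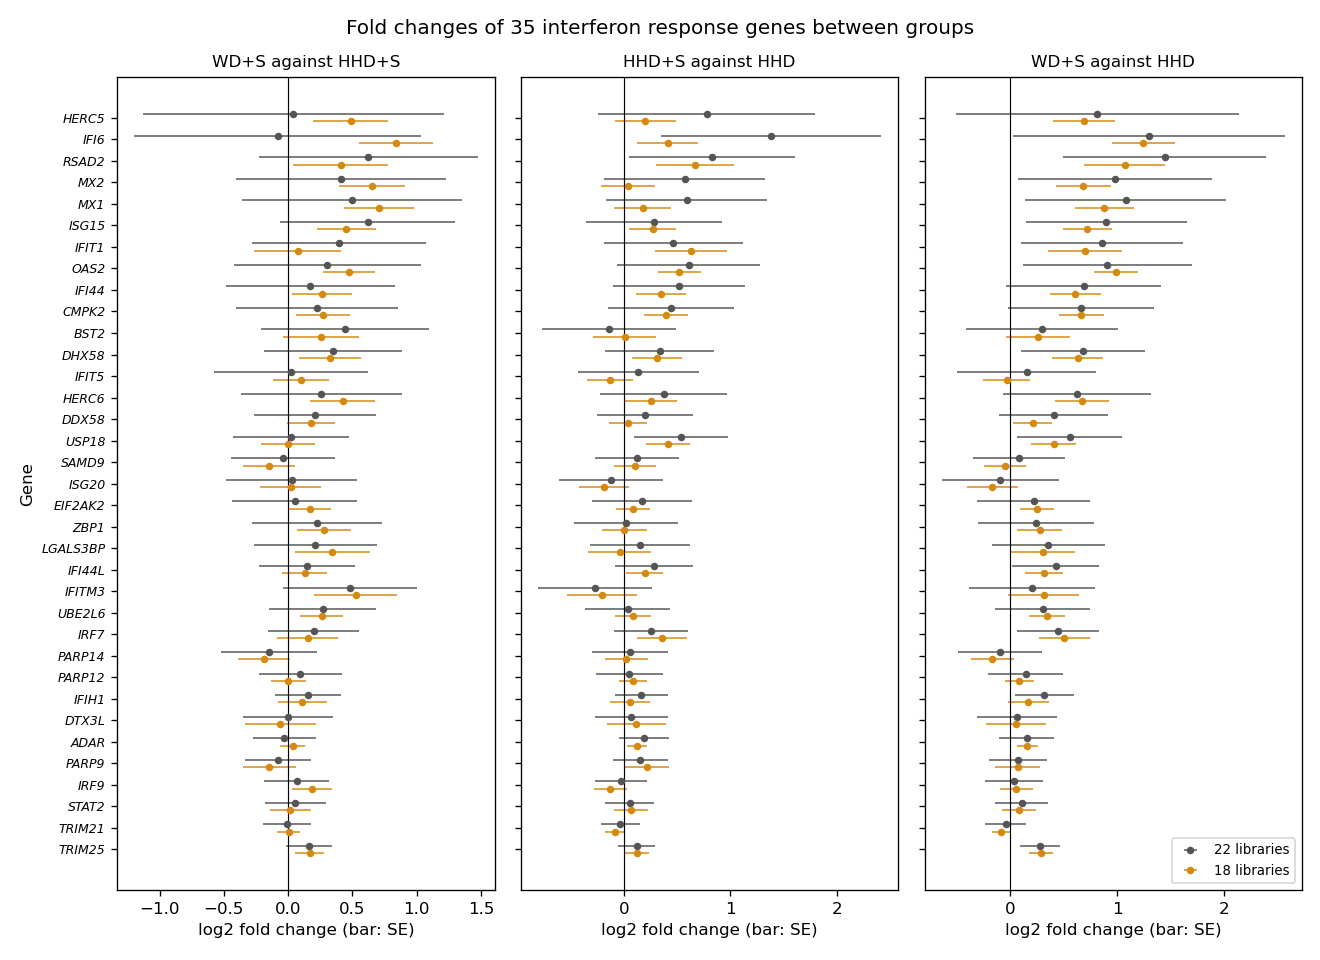
Log2 fold changes of the 35 interferon response genes in WD+S against HHD+S, HHD+S against HHD and WD+S against HHD, with bars of 1 standard error; grey is the fit over all 22 pigs, orange the fit over 18 pigs without the 4 high ones. Orange bars are shorter than grey ones, and the furthest orange point is IFI6 (1.25) in WD+S against HHD.

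Other genes of the interferon pathway were taken from 4 lists. Of these genes 65 were in the files and 59 were tested, and none passed the test in any comparison. At an unadjusted p under 0.05, TRIM26, a ubiquitin ligase, had a log2 fold change of 0.31 (SE 0.146, edgeR adjusted p = 0.9995) in WD+S against HHD+S and 0.32 (SE 0.153, edgeR adjusted p = 0.9997) in WD+S against HHD, and STAT3, an acute-phase signal transducer, of -0.31 (SE 0.147, edgeR adjusted p = 0.9993) in HHD+S against HHD. For 20 of the 59 (33.9%, against 1.28% of all genes) the 4 highest libraries were the same 4 pigs.

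Interferon transcripts themselves were few. IFNB1 and IFNK had 0 counts in all 22 libraries. An approximate upper confidence bound for a count of 0, taken as 3 counts, comes to 0.102 to 0.199 CPM. The 3 interferon alpha rows had counts in 16, 12 and 9 libraries and reached at most 0.343 CPM. IFNE, an interferon of epithelia, was at 1.52 to 3.73 CPM, and both extremes were high pigs, HHD+S 7 and HHD+S 8. IFNG, the interferon of T and natural killer cells, was at 3.84 CPM in WD+S 7, 3.61 in HHD+S 7, 2.33 in HHD+S 8 and 4.20 in HHD 7. The other 18 pigs ran from 0.15 to 1.72 CPM, below all 4. No row of a type III interferon was found under the symbols searched.

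Among the signalling genes, SOCS1 had the 4 pigs as the 4 highest libraries. This feedback inhibitor of JAK kinases was at 4.91 CPM in WD+S 7, 5.40 in HHD+S 7, 3.499 in HHD+S 8 and 7.12 in HHD 7 against 0.78 to 2.40 in the others. The receptor gene IFNAR1 and the kinase gene JAK1 did not stand above the rest in them: IFNAR1 was at 55.7 to 77.9 CPM in the 4 pigs and 50.2 to 87.6 in the others, and JAK1 was at 288 to 337 against 314 to 494, with HHD 7 and HHD+S 8 below that range. SOCS3, an inhibitor of STAT3 signalling, had a log2 fold change of 0.54 (SE 0.293, edgeR adjusted p = 0.9995) in WD+S against HHD+S.

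Of 14 upstream sensing genes, TLR8 and CGAS had these 4 pigs on top. TLR8, a sensor of single-stranded RNA, was at 24.9, 19.1, 13.72 and 20.3 CPM against 6.55 to 13.67, so HHD+S 8 was level with the highest of the others. TLR9, a sensor of unmethylated DNA, went otherwise, with 1.39, 2.35, 1.63 and 1.19 CPM against 0.56 to 4.39. The adaptors MYD88 and MAVS and the kinase IRAK4 lay inside the range of the other pigs in all 4. In HHD+S against HHD, the log2 fold change was -0.25 (SE 0.128) for MYD88 and -0.39 (SE 0.226) for IRAK4, each at an edgeR adjusted p of 0.9993.

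Among 30 tested induced genes outside the members, 15 had the 4 pigs on top. OASL, too low in most pigs to be tested, was at 27.0, 11.3, 2.85 and 7.66 CPM against 0 to 1.23. CXCL11 and CXCL10, chemokines that draw T cells, were at 2.65, 2.53, 2.10 and 6.87 CPM against 0.12 to 0.90 for the first and at 91.7, 40.4, 30.7 and 94.4 CPM against 4.62 to 19.3 for the second. GBP2, a GTPase strongly induced by interferon gamma, was at 159.5, 184, 55.4 and 259 CPM against 16.4 to 53.5. WD+S 7 was the highest of the 22 libraries for 13 of the 20 pathway genes that had these pigs on top, HHD 7 for 6 (IFNG, SOCS1, CXCL10, CXCL11, GBP2 and NLRC5) and HHD+S 7 for 1. LAP3, an aminopeptidase, was at 123 CPM in HHD+S 8 and at 221 to 644 in the 18 other pigs, with 556, 569 and 638 in WD+S 7, HHD+S 7 and HHD 7. Its log2 fold change in WD+S against HHD+S was 0.50 (SE 0.250, edgeR adjusted p = 0.9995), and 0.32 without HHD+S 8. IRF1 and GBP1 were at 64.0 and 457 CPM in HHD+S 8, inside the ranges of 46.9 to 107 and 253 to 955 CPM, and above those ranges in the other 3.

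**Figure D5:**
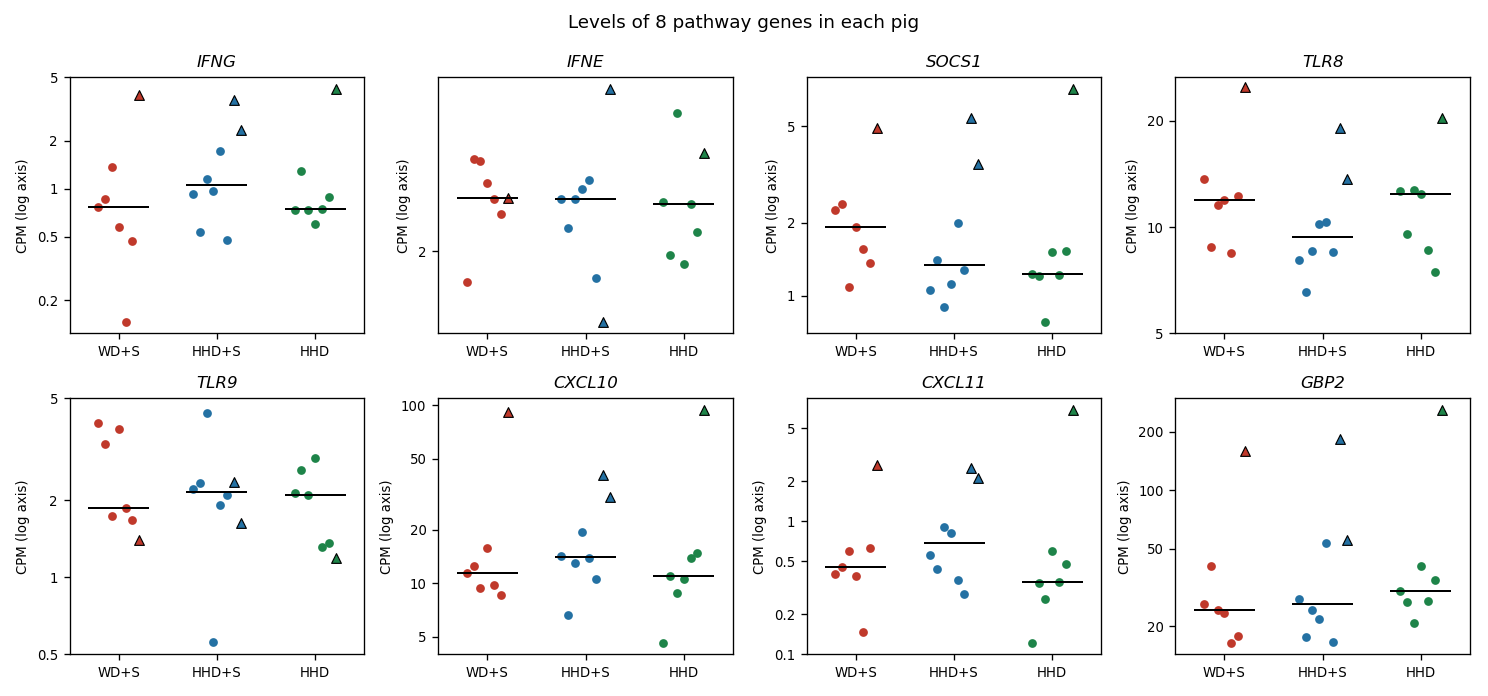
CPM on a log axis in each pig for IFNG, IFNE, SOCS1, TLR8, TLR9, CXCL10, CXCL11 and GBP2, by group; triangles are the 4 high pigs, circles the other 18, and lines the group medians over all pigs. Triangles stand above all circles for IFNG, SOCS1, TLR8, CXCL10, CXCL11 and GBP2 and are mixed among the circles for IFNE and TLR9.

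Genes whose symbols were not on these lists were also ranked by how closely they tracked the members' mean over the 22 pigs. The closest included MFSD12 (Spearman's rho 0.876), ZNFX1 (0.840), ISG12(A) (0.831), FBXO39 (0.811) and NUB1 (0.809). ISG12 is another name of IFI27, a symbol on the list of other induced genes, so ISG12(A) fell outside the lists by its symbol alone. FBXO39 was at 135, 83.9, 68.7 and 88.6 CPM in WD+S 7, HHD+S 7, HHD+S 8 and HHD 7 against 8.83 to 23.3 in the others. ZNFX1, an RNA helicase, was at 429, 289, 142 and 246 CPM against 50.6 to 118. Both were apart without overlap, while NUB1 in HHD+S 8, at 85.9 CPM, lay inside the range of 62.1 to 103 of the others.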

How the data were processed

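The authors deposited, for each of 22 libraries, counts per gene of exon reads placed uniquely, per the file headers. The labels' protocols name an RNA quality indicator above 8, the TruSeq v2 kit, single reads of 150 bases and a CLC workbench with Sscrofa11.1 as the reference. How reads were mapped, and whether strand was used, is not given in the sources used here.

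Groups follow each sample's diet label. For WD+S the title prefix and the diet label disagree on the drug, as the report states, and the diet label was used. Of the 36 members found, 34 matched RefSeq coordinates (Sscrofa11.1) by symbol. Promoter motifs, which had been planned, were not searched.

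Counts were fitted with edgeR 4.0.16 in R 4.3.3: filterByExpr (minimum count 10), TMM scaling, a robust quasi-likelihood model of 3 groups plus pool over 22 libraries, 18 residual degrees of freedom, a biological coefficient of variation of 25.9%, and Benjamini-Hochberg adjustment over 13626 genes. The fit was tested on simulated data. Log2 CPM use a prior count of 2. Library totals, 15.3 to 31.6 M counts, limit the precision of genes near 1 CPM.

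The members and lists were chosen with earlier results of these data known. Named with values were the 3 members with the smallest p in each comparison, and per role the 2 with the largest within-group spread and the one with the highest mean (mean of at least 1 CPM), members below the filter, per pathway list the 2 with the smallest p and the 2 with the largest spread, and the 6 genes most like the members' mean. Some genes that this rule names are not reported here. Other genes, and features of single libraries, were named after their values were seen. Alternatives were RLE scaling, total counts, DESeq2 1.42.0, limma 3.58.1 with voom and quality weights, no robust estimation, 2 other filters, no pool term, each pool alone, only the 2 groups compared, and leaving out libraries.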

Additional observations from a re-analysis of the deposited data

Results flagged for a closer look

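Within each group, the gap between the most extreme pig and its nearest neighbour was divided by the group's whole range of log2 CPM, for the members' mean and 22 named members in 3 groups. A pig was singled out where this share passed Dixon's critical value for its group size. Most of the 22 were named for a large within-group spread, which favours such gaps, the others for a high mean or a small p, and the genes move together. So the rate of about 1 in 20 that chance gives for independent groups does not apply to them, and the 22 of 69 that passed are given as a description. All 10 in WD+S were WD+S 7, all 12 in HHD were HHD 7, and there were 0 in HHD+S, where 2 pigs were high together.

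In WD+S, the share for WD+S 7 was 0.65 for the members' mean, 0.637 for ZBP1, 0.653 for EIF2AK2, 0.578 for HERC5, 0.626 for IFIT1, 0.783 for IFIT5, 0.573 for MX2, 0.664 for BST2, 0.607 for PARP14 and 0.663 for IFI6. In HHD, the share for HHD 7 was 0.749 for the members' mean, 0.776 for EIF2AK2, 0.807 for HERC5, 0.822 for ISG15, 0.607 for HERC6, 0.669 for IFIT5, 0.92 for MX2, 0.662 for BST2, 0.653 for IFI6, 0.72 for IFI44, 0.694 for TRIM25 and 0.622 for USP18.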

How the results depend on the processing

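No member passed an adjusted p of 0.05 in any comparison under any alternative run, including DESeq2, limma with quality weights and each library left out. The medians over members changed with single libraries: leaving out 1 library gave -0.36 to 0.46 in WD+S against HHD+S, -0.18 to 0.61 in HHD+S against HHD and -0.03 to 0.72 in WD+S against HHD, and pool 4 alone gave 1.25 in the last. With pool 3 alone, signs turned for TRIM25 (-0.040) and ISG15 (-0.46) in WD+S against HHD+S and for RSAD2 (-0.058) and ISG15 (-0.35) in WD+S against HHD. With 1 library left out, the lowest and highest differences were -0.041 and 0.76 for IFITM3 and -0.28 and 0.96 for ISG15 in WD+S against HHD+S, and -0.46 and 2.68 for IFI6, -0.0061 and 1.63 for RSAD2 and -0.13 and 0.067 for IFNE in HHD+S against HHD, where IFNE was 0.34 with pool 4 alone. The cause was not tested. Over the 18 pigs, leaving out 1 more gave 1 to 7 members at an unadjusted p under 0.05 in WD+S against HHD+S, 0 to 7 in HHD+S against HHD and 6 to 18 in WD+S against HHD. No paired analysis was possible because the labels carry animal numbers and no replicate numbers shared between groups. Depth limits IFIT1, IFIT2, OASL, IFNG and the alpha interferons most.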
